A study of Mus musculus with 6 samples.

Results

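The 37 genes described here encode the contractile, calcium handling and energy proteins of skeletal muscle fibres. They were chosen by symbol, and all 37 were found among the 19241 genes of the deposited FPKM table (fragments mapped to a gene, scaled to its transcript length and the size of the library) made from entire interscapular brown fat (the depot between the shoulder blades) of newborn mice. The WT group holds 3 libraries of mice whose Fstl1 gene was floxed, and the KO group holds 3 libraries from mice labelled Myf5-Fstl1 KO, in which Fstl1, the gene for a secreted glycoprotein, was deleted in the Myf5 lineage. Whether the WT mice carried a Cre driver, and whether a library is 1 animal or a pool, is not given in the sources used here. Myf5 marks precursors of skeletal muscle as well as of much of the interscapular brown fat, so RNA of muscle fibres in the dissected depot can come from cells that carry the deletion.

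A sarcomere is built from thick filaments of myosin and thin filaments of actin, tropomyosin and troponin, anchored in Z-discs and spanned by titin and nebulin. Calcium released from the sarcoplasmic reticulum by the ryanodine receptor binds troponin C and starts contraction, and the SERCA pump returns it. Most of these proteins come in developmental, slow and fast forms encoded by different genes, and around birth mouse muscle is replacing embryonic and perinatal myosin with adult forms.

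The groups differed in more than the deletion. Fstl1 lay at 54.4 to 130 FPKM (WT) against 7.93 to 13.1 FPKM (KO). Xist lay at 44.8 to 85.5 FPKM in the WT libraries and at 0.05 to 0.92 FPKM in the KO libraries, while the Y-linked gene Ddx3y lay at 0 to 0.23 and 59.5 to 60.8 FPKM. Sex therefore coincided with genotype in these libraries, and the part of either in any difference below cannot be told apart. Depth, estimated from the steps between low FPKM values, was 13750000 to 14950000 reads per library. Nothing in the labels says that the libraries came from separate litters, so p-values measure the spread between these libraries.

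Muscle RNA was present in all 6 libraries, and 1 library, KO replicate 1, held far less of it than the others. The 37 genes summed to 1994, 2865 and 2261 FPKM in the WT libraries and to 525, 2163 and 2583 FPKM in the KO libraries. They made up 0.104% of all FPKM in KO replicate 1 and 0.406% to 0.552% in the other 5 libraries. KO replicate 1 was the lowest library for 36 of the 37 genes, where it was the lowest for 9.94% of all 13331 genes tested. Mb was the exception. WT replicate 2 was the highest library for 18 of the 37, against 17.7% of all genes tested, and KO replicate 3 for 16, against 14.9%. A second library, WT replicate 3, was low for long transcripts: the 10 members over 5000 nt stood there at a median of 50.8% of the mean of the other WT libraries. In a bulk sample, fewer muscle fibres and less RNA per fibre cannot be told apart. The fold changes are therefore also given without KO replicate 1, and isoforms are compared within each library. Where 3 values are given for a group, they stand in the order of its replicates 1, 2 and 3.

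**Figure D1:**
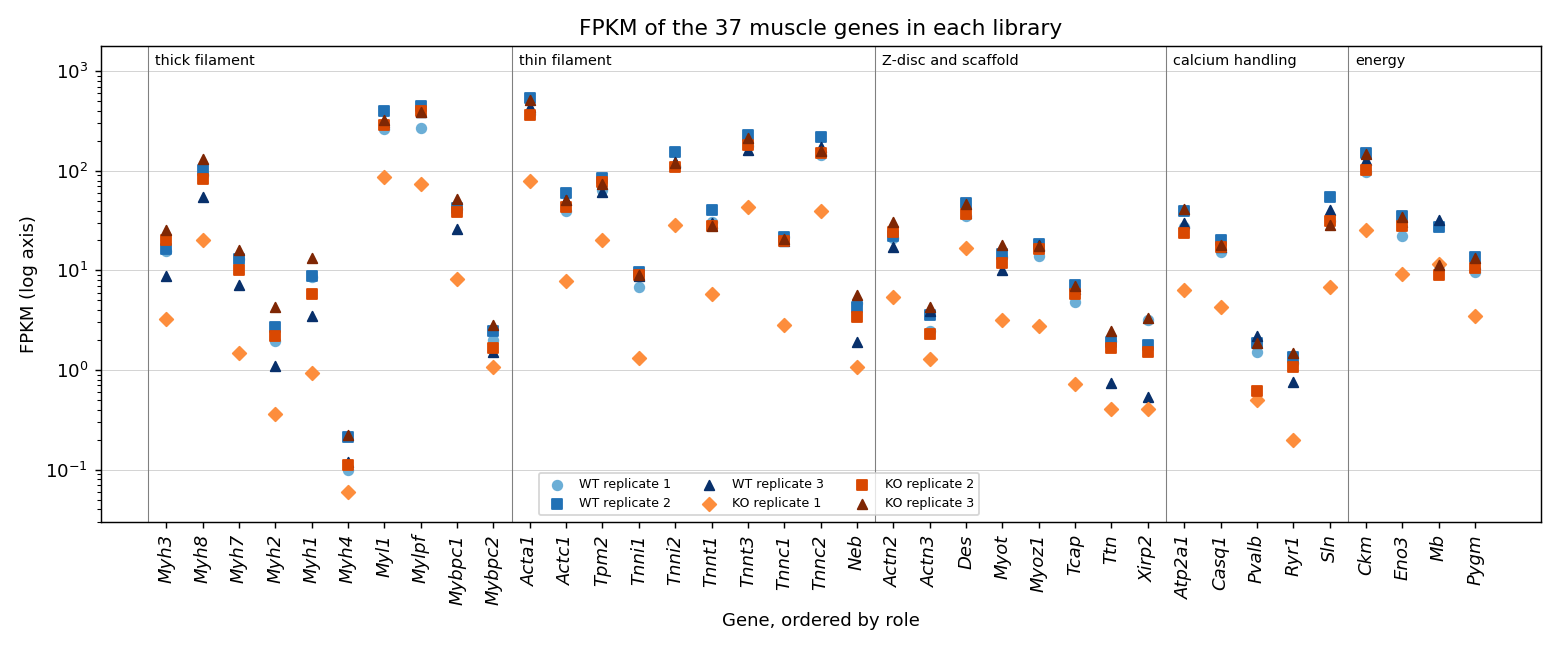
FPKM (log axis) of each of the 37 genes, ordered by role, with 1 point for each of the 6 libraries (blue WT, orange to brown KO). KO replicate 1 (light orange diamonds) is the lowest point for 36 genes, and Acta1, Mylpf, Myl1, Tnnt3 and Tnnc2 are the 5 highest genes in each library.

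Skeletal muscle genes outside this group were lowest in the same library. A list of 41 other fibre genes summed to 187 to 236 FPKM in WT, 57.7 FPKM in KO replicate 1, and 185 and 217 FPKM in KO replicates 2 and 3. KO replicate 1 was the lowest library for 39 of these 41. It was the lowest library for 0 of the 12 brown fat markers. Their sum, most of it Fabp4, was 24876 FPKM in KO replicate 1 and 22846 to 29817 FPKM elsewhere. Within that list Ucp1, Elovl3, Prdm16, Otop1 and Plin1 lay below each WT library in all 3 KO libraries. Over all genes tested, the groups did not overlap, in either direction, for 24.9%. Ucp1 lay at 4366, 6124 and 6255 FPKM (WT) against 2902, 1695 and 3592 FPKM (KO). The 8 smooth muscle genes summed to 67.4 FPKM in KO replicate 1, beside 67.8 and 85.6 in the other KO libraries and 79.2 to 105 in WT. Of the cardiac markers, Myh6, Nppa, Nppb, Tnni3 and Ryr2 did not exceed 0.49 FPKM in any library, while Myl2, which slow skeletal fibres also express, lay at 39.3 to 55.0 FPKM in 5 libraries and at 3.79 FPKM in KO replicate 1. Other genes of the cardiac list were measured too, with Myl4 at 13.6 to 17.8 FPKM (WT) against 3.02, 13.8 and 17.7 FPKM (KO), Tnnt2 at 5.05 to 7.42 FPKM (WT) against 0.85, 5.47 and 5.80 FPKM (KO), and Myl3 at 4.6 to 5.47 FPKM (WT) against 1.10, 5.33 and 4.31 FPKM (KO). The part of heart RNA in the values of Myh7, Tnnc1 and Actc1, which heart also expresses, was not tested.

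Promoter sequences are shown for 5 genes on which the results below turn: Myh3 and Tnnt1, whose shares of their families separated the groups; Mylpf and Ckm, which were low in KO replicate 1; and Mb, which was not. They are the 250 bases before the RefSeq transcription start (GRCm38.p6, the build named mm10 in the submitters' processing notes), read 5′ to 3′ on the gene's strand, with each CAGCTG and each TATAAA in capitals. CAGCTG is a form of the E-box, the element bound by MyoD and its relatives, and TATAAA is the TATA box.
Myh3, chr11:67078050-67078299, plus strand: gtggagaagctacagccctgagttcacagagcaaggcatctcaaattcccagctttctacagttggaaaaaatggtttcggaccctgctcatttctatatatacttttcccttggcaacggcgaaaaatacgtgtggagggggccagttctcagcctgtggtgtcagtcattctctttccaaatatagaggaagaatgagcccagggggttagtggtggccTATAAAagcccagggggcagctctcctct
Tnnt1, chr7:4515976-4516225, minus strand: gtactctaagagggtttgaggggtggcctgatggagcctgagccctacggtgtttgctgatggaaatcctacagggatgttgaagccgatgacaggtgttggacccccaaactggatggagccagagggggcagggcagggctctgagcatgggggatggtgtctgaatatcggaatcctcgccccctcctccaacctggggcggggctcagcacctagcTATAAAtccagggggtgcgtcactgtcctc
Mylpf, chr7:127211358-127211607, plus strand: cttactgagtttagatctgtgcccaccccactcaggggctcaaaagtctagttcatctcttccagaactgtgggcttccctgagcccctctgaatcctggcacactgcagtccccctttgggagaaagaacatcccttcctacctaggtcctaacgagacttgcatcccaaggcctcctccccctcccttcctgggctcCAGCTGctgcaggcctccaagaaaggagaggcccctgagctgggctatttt
Ckm, chr7:19410844-19411093, plus strand: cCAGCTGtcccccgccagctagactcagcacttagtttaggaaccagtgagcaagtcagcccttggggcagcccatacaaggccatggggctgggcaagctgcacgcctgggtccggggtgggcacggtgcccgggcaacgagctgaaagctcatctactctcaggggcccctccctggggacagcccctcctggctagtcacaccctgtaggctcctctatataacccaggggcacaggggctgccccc
Mb, chr15:77022788-77023037, minus strand, 1 of 3 listed starts: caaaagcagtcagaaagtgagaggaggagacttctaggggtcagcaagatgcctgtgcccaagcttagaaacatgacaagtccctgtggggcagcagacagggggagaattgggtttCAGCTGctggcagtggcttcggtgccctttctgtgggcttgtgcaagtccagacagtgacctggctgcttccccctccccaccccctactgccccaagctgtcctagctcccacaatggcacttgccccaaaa
Promoters were matched for 29 of the 37 genes. A gene with several listed starts was counted if the window of any of them held the element. CAGCTG, which reads the same on both strands, stood in a window of 13 of the 29 (44.8%), against 14.7% of the 27025 genes in the promoter table. TATAAA on either strand stood in 7 (24.1%, against 14.3%), the MEF2 element in 6 (20.7%, against 3.42%) and the CArG box in 3 (10.3%, against 1.62%), on windows of the same length, and a MEF2 or CArG match can overlap a TATAAA. Such matches describe letters in a window and are not measured binding. The Mb window shown holds CAGCTG as those of Mylpf and Ckm do, and the Myh3 and Tnnt1 windows hold TATAAA 29 and 30 bases before the start. Windows of the other listed Mb starts are not described here.

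Between KO and WT none of the muscle genes passed the test. Of the 36 genes whose mean over the 6 libraries reached 0.5 FPKM (that of Myh4 did not), 0 passed an adjusted p of 0.05 in limma, where 2.21% of all genes tested did (1.01% lower and 1.21% higher in KO), and 2 had an unadjusted p under 0.05, where 19.2% of all genes did. The log2 fold change was below 0 for 35 of the 36, with a median of −0.58, against 48.4% below 0 and a median of 0.01 over all genes tested. Without KO replicate 1, 13 of 36 were below 0, against 48.1% of all genes, and the median was 0.07. None passed there (0 adjusted, and 2 at an unadjusted p under 0.05, against 1.01% and 16.2% of all genes; of all genes 0.54% passed lower and 0.472% higher). Without WT replicate 3 none passed either, against 0.254% of all genes. Log2 fold changes are on the log2(FPKM + 1) scale, which understates differences of low genes.

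The groups did not overlap in 1 of the 36 genes, Tnnt1, against 24.9% of all genes tested. Without KO replicate 1 they did not overlap in 3 genes, Tnnt1 (lower in KO), Myh3 and Actn2 (higher in KO), against 33.8%. By role, the median log2 fold change was −0.39 for the thick filament, −0.84 for the thin filament, −0.34 for Z-disc and scaffold genes, −0.58 for calcium handling and −0.62 for energy genes. These medians were 0.32, −0.04, 0.12, −0.01 and 0.01 once KO replicate 1 was left out.

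Isoforms were compared within each library, first for the myosin heavy chains, the motor proteins of the thick filament. Perinatal myosin, Myh8, was the most abundant of the 6 genes in all 6 libraries. It lay at 90.2, 102 and 55.1 FPKM (WT) against 20.1, 82.6 and 132 FPKM (KO). Embryonic myosin, Myh3, lay at 15.8, 16.4 and 8.88 FPKM (WT) against 3.24, 20.01 and 25.8 FPKM (KO). Slow myosin, Myh7, lay at 13.2, 12.9 and 7.09 FPKM (WT) against 1.48, 10.02 and 16.2 FPKM (KO). In all 3 genes KO replicate 1 was lowest, WT replicate 3 was next and KO replicate 3 was highest, so the groups overlapped.

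The adult fast myosins were lower than Myh8 in each library. Myh1, the type IIX form, lay at 3.45 to 8.83 FPKM (WT) against 0.93, 5.85 and 13.3 FPKM (KO). Myh2, the type IIA form, lay at 1.09 to 2.68 FPKM (WT) against 0.36, 2.19 and 4.30 FPKM (KO). Myh4, the type IIB form and the main myosin of many adult mouse fast muscles, did not exceed 0.22 FPKM, and its lowest value rests on about 4.92 reads by the depth estimate. Myh3, Myh2, Myh1, Myh4 and Myh8 are neighbouring genes of similar sequence on chromosome 11 (chr11:67078273-67102291 for Myh3 and chr11:67277124-67308634 for Myh8), and how reads shared between them were counted is not stated, so their shares are uncertain to that extent.

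As shares of the summed FPKM of these 6 genes, embryonic myosin was higher and slow myosin lower in the KO libraries, without overlap with WT. Both shares are taken of the same sum, so they are not separate results. In FPKM, the groups did not overlap, in either direction, for 24.9% of all genes tested. Myh3 made up 12.2%, 11.4% and 11.7% in WT replicates 1, 2 and 3 and 12.4%, 16.6% and 13.4% in KO replicates 1, 2 and 3. The means were 11.8% ± 0.373 in WT and 14.1% ± 2.18 in KO (SD, n = 3 each), a difference of 2.35 percentage points (exact two-sided permutation test, p = 0.1, adjusted p = 0.333 over the 10 shares compared). The gap between the groups was narrow, since KO replicate 1 at 12.4% lay next to WT replicate 1 at 12.2%. An exact p of 0.1 is the smallest that 3 libraries against 3 can give, so no share could pass 0.05.

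Myh7 made up 10.1%, 9.01% and 9.37% in WT and 5.65%, 8.29% and 8.44% in KO. The means were 9.51% ± 0.577 in WT and 7.46% ± 1.57 in KO (SD, n = 3 each), a difference of −2.05 percentage points (exact permutation p = 0.1, adjusted p = 0.333). Without KO replicate 1 the difference was −1.14 for Myh7 and 3.23 for Myh3, and without KO replicate 2 that of Myh3 was 1.13. Myh8 made up 69.5% to 72.7% in WT and 76.8%, 68.4% and 68.8% in KO, and the adult fast genes together 6.16% to 8.20% in WT and 5.15% to 9.31% in KO. The groups overlapped in both of these shares (exact permutation p = 1 and p = 0.9). The Myh8 share differed by 0.143 percentage points with all libraries and by −2.6 without KO replicate 1, where both remaining KO libraries lay below all WT libraries (exact permutation p = 0.2).

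**Figure D2:**
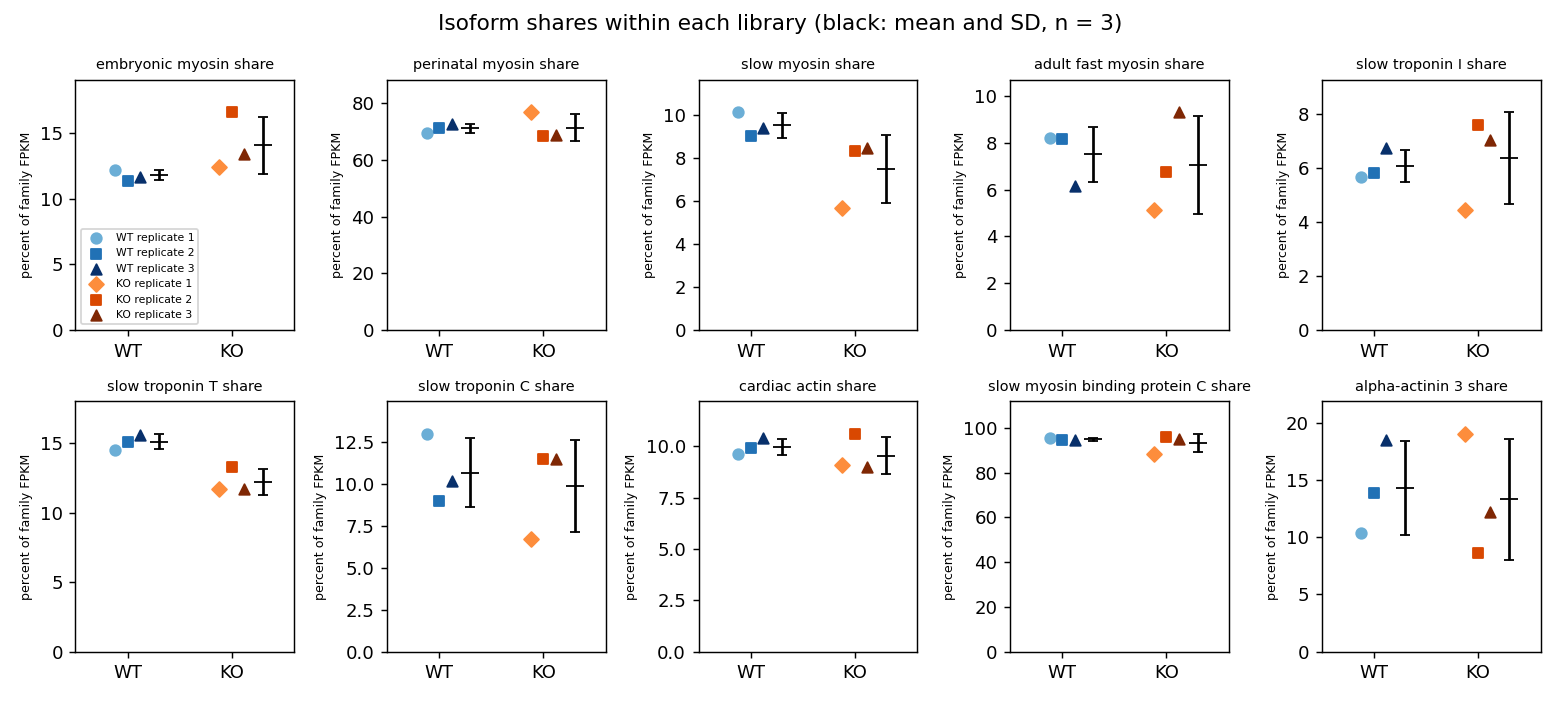
Percent of the summed FPKM of a gene family that a form made up in each library, with 1 panel for each of the 10 shares, 1 point per library and the mean and SD of 3 libraries in black. The KO points lie above the WT points for embryonic myosin (12.4% to 16.6% against 11.4% to 12.2%) and below them for slow myosin and slow troponin T (11.7% to 13.3% against 14.5% to 15.6%), and the groups overlap in the other 7 panels. In FPKM, the groups did not overlap for 24.9% of all genes tested.

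Troponins, the calcium switch of the thin filament, were mostly of the fast form. Fast troponin T, Tnnt3, lay at 179, 230 and 161 FPKM (WT) against 43.4, 184 and 212 FPKM (KO). Slow troponin T, Tnnt1 (chr7:4504569-4515975), lay at 30.4, 40.9 and 29.8 FPKM (WT) against 5.77, 28.2 and 28.01 FPKM (KO). Each KO library was thus below each WT library for Tnnt1, though KO replicates 2 and 3 were close to WT replicate 3 (limma, log2 fold change −0.94, SE 0.50, adjusted p 0.342). Without KO replicate 1 it was −0.24 (limma, adjusted p 0.6).

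The slow share of troponin T separated the groups with a wider gap, where in FPKM the groups did not overlap for 24.9% of all genes tested. Tnnt1 made up 14.5%, 15.1% and 15.6% of the 2 genes in WT and 11.7%, 13.3% and 11.7% in KO. The means were 15.1% ± 0.547 and 12.2% ± 0.915 (SD, n = 3 each), a difference of −2.86 percentage points (exact permutation p = 0.1, adjusted p = 0.333), and −2.62 without KO replicate 1.

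The other slow troponins did not separate the groups. Slow troponin I, Tnni1, made up 5.64% to 6.73% of Tnni1 and Tnni2 in WT and 4.42%, 7.60% and 7.04% in KO replicates 1, 2 and 3 (exact permutation p = 0.8). Slow troponin C, Tnnc1, made up 9.00% to 13.0% in WT and 6.73%, 11.5% and 11.5% in KO (exact permutation p = 0.7). In both, KO replicate 1 was the lowest library and KO replicates 2 and 3 lay within or above the WT range. Tnni1 in KO replicate 1, at 1.31 FPKM, rests on about 19.0 reads by the depth estimate.

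Levels of the other troponin genes were lowest in KO replicate 1. Fast troponin I, Tnni2, lay at 113, 156 and 123 FPKM (WT) against 28.4, 108 and 120 FPKM (KO) (limma, log2 fold change −0.84, adjusted p 0.368, and −0.18 without KO replicate 1). Fast troponin C, Tnnc2, lay at 145, 218 and 176 FPKM (WT) against 39.5, 152 and 159 FPKM (KO) (limma, −0.84, adjusted p 0.367, and −0.19 without KO replicate 1). Tnni1 lay at 6.74 to 9.62 FPKM (WT) against 1.31, 8.90 and 9.10 FPKM (KO), and Tnnc1 at 19.9 to 21.7 FPKM (WT) against 2.85, 19.8 and 20.6 FPKM (KO). Their log2 fold changes were −0.60 and −0.88, and 0.10 and −0.06 without KO replicate 1. That of Tnnt3 was −0.65, and 0.07 without it.

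The remaining pairs of forms overlapped between the groups. Cardiac alpha-actin, Actc1, which developing skeletal muscle also makes, was 9.62% to 10.4% of Actc1 and Acta1 in WT and 9.00% to 10.6% in KO (exact permutation p = 0.6). Slow-type myosin binding protein C, Mybpc1, was 94.5% to 95.5% of Mybpc1 and Mybpc2 in WT, 88.4% in KO replicate 1, and 95.9% and 94.9% in KO replicates 2 and 3 (exact permutation p = 0.9). Alpha-actinin 3, Actn3, which crosslinks Z-discs of fast fibres, was 10.4% to 18.5% of Actn3 and Actn2 in WT and 8.60% to 19.0% in KO (exact permutation p = 0.8). KO replicate 1 was thus the lowest library for the slow share of myosin, troponin I, troponin C and myosin binding protein C, and for troponin T it stood beside KO replicate 3.

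Relative to KO replicates 2 and 3, slow genes were the most reduced class in KO replicate 1 by the median over their members. The 5 slow genes stood there at a median of 14.6% of the mean of those libraries (11.3% for Myh7 to 20.5% for Tnnt1), and the 3 developmental genes at 16.6% (14.2% for Myh3 to 18.8% for Myh8). The 14 fast genes stood at a median of 24.5%, from 9.71% for Myh1 to 48.3% for Mybpc2, so the classes overlapped. The 15 genes not put in a developmental, slow or fast class, Mb, Sln and Eno3 among them, stood at a median of 21.2%. They ran from 11.2% for Tcap, the titin cap, to 114% for Mb. These are values of 1 library and have no replicate.

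The most abundant genes of the set were thin and thick filament genes, each again lowest in KO replicate 1. Skeletal actin, Acta1, lay at 369, 541 and 439 FPKM (WT) against 78.6, 367 and 515 FPKM (KO) (limma, log2 fold change −0.85, adjusted p 0.461, and −0.03 without KO replicate 1). The fast regulatory light chain, Mylpf, lay at 273, 449 and 387 FPKM (WT) against 74.4, 398 and 390 FPKM (KO) (limma, −0.68, adjusted p 0.552, and 0.12 without KO replicate 1). The fast alkali light chain, Myl1, lay at 262 to 401 FPKM (WT) against 86.7, 289 and 326 FPKM (KO). In these 3 genes KO replicates 2 and 3 lay within or next to the WT range. Mybpc1, whose product ties myosin to the thin filament, lay at 25.95 to 42.65 FPKM (WT) against 8.22, 38.5 and 52.7 FPKM (KO), and its fast counterpart Mybpc2 at 1.52 to 2.44 FPKM (WT) against 1.08, 1.66 and 2.81 FPKM (KO). Actc1 lay at 39.2 to 59.7 FPKM (WT) against 7.84, 43.4 and 50.9 FPKM (KO), and beta-tropomyosin, Tpm2, at 60.8 to 84.4 FPKM (WT) against 20.3, 76.9 and 73.9 FPKM (KO).

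Z-disc and scaffold genes gave the same picture, with alpha-actinin 2 as a partial exception. Actn2 lay at 21.1, 22.1 and 17.1 FPKM (WT) against 5.45, 24.4 and 30.9 FPKM (KO). KO replicates 2 and 3 were above each WT library and KO replicate 1 was below them, so the log2 fold change was −0.27 with all libraries (limma, adjusted p 0.816) and 0.44 without KO replicate 1 (limma, adjusted p 0.322). Desmin, Des, the intermediate filament protein of muscle, which smooth muscle also makes, lay at 35.6 to 47.8 FPKM (WT) against 16.9, 36.8 and 46.6 FPKM (KO). KO replicate 1 held 40.5% of the Des level of the other KO libraries, more than for any other Z-disc or scaffold gene. Myotilin, Myot, lay at 10.1 to 14.7 FPKM (WT) against 3.16, 11.9 and 17.9 FPKM (KO), and myozenin 1, Myoz1, at 13.9 to 18.6 FPKM (WT) against 2.79, 16.6 and 17.8 FPKM (KO). Actn3 lay at 2.44 to 3.89 FPKM (WT) against 1.28, 2.30 and 4.29 FPKM (KO). Tcap lay at 4.81 to 7.10 FPKM (WT) against 0.72, 5.78 and 7.04 FPKM (KO), and its lowest value rests on about 8.89 reads. In each of these genes KO replicate 1 was the lowest library and the other KO libraries lay within, above or just below the WT range.

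Calcium handling genes included the member with the lowest fold change. Sarcolipin, Sln (chr9:53850251-53853849), encodes a small peptide that inhibits the SERCA pump. It lay at 31.2, 54.2 and 40.4 FPKM (WT) against 6.87, 31.4 and 28.7 FPKM (KO). The groups overlapped by KO replicate 2 and WT replicate 1 alone, which were nearly equal (limma, log2 fold change −1.09, SE 0.48, adjusted p 0.261). Without KO replicate 1 it was −0.43 (limma, adjusted p 0.417).

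Parvalbumin, Pvalb, a calcium buffer of fast fibres, lay at 1.52, 1.86 and 2.21 FPKM (WT) against 0.50, 0.62 and 1.87 FPKM (KO) (limma, log2 fold change −0.58, unadjusted p 0.045, adjusted p 0.248, and −0.40 without KO replicate 1). KO replicate 2, whose other muscle genes were near the WT levels, was also low for Pvalb, and KO replicate 3 was not. Its lowest value rests on about 6.21 reads. The fast SERCA pump, Atp2a1, lay at 27.3 to 39.4 FPKM (WT) against 6.35, 23.9 and 41.5 FPKM (KO). Calsequestrin 1, Casq1, the calcium store protein, lay at 15.3 to 20.3 FPKM (WT) against 4.29, 17.3 and 18.2 FPKM (KO).

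Among the energy genes, myoglobin departed from the rest. Mb (chr15:77015487-77050668), an oxygen-binding protein of muscle, lay at 11.3, 27.4 and 32.3 FPKM (WT) against 11.7, 9.01 and 11.4 FPKM (KO). WT replicates 2 and 3 were high and the other 4 libraries, KO replicate 1 among them, were alike, so the groups overlapped through WT replicate 1. KO replicate 1 held 114% of the mean of the other KO libraries, where the other 36 genes stood at 9.71% to 48.3%. Whether the Mb RNA of this bulk tissue came from muscle fibres alone was not tested. The log2 fold change was −0.96 (limma, SE 0.33, unadjusted p 0.0183, adjusted p 0.169) and −1.02 without KO replicate 1 (limma, adjusted p 0.245). Without WT replicate 1 it was −1.40 and passed (limma, adjusted p 0.0162), so this call rests on which WT library is kept. Over all alternatives the adjusted p ran from 0.0162 to 0.463. The Mb transcript has 1104 nt. Over all tested genes under 1500 nt, the median log2(FPKM + 1) deviation from the gene's mean was −0.15 in WT replicate 1. Its part in the Mb value of that library was not tested.

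The other energy genes were lowest in KO replicate 1 and overlapped between the groups. Muscle creatine kinase, Ckm, lay at 98.6, 150 and 128 FPKM (WT) against 25.3, 101 and 146 FPKM (KO) (limma, log2 fold change −0.76, adjusted p 0.474, and −0.02 without KO replicate 1). Beta-enolase, Eno3, lay at 22.1 to 35.0 FPKM (WT) against 9.22, 27.7 and 34.3 FPKM (KO). Muscle glycogen phosphorylase, Pygm, lay at 9.72 to 13.7 FPKM (WT) against 3.52, 10.6 and 13.5 FPKM (KO).

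**Figure D3:**
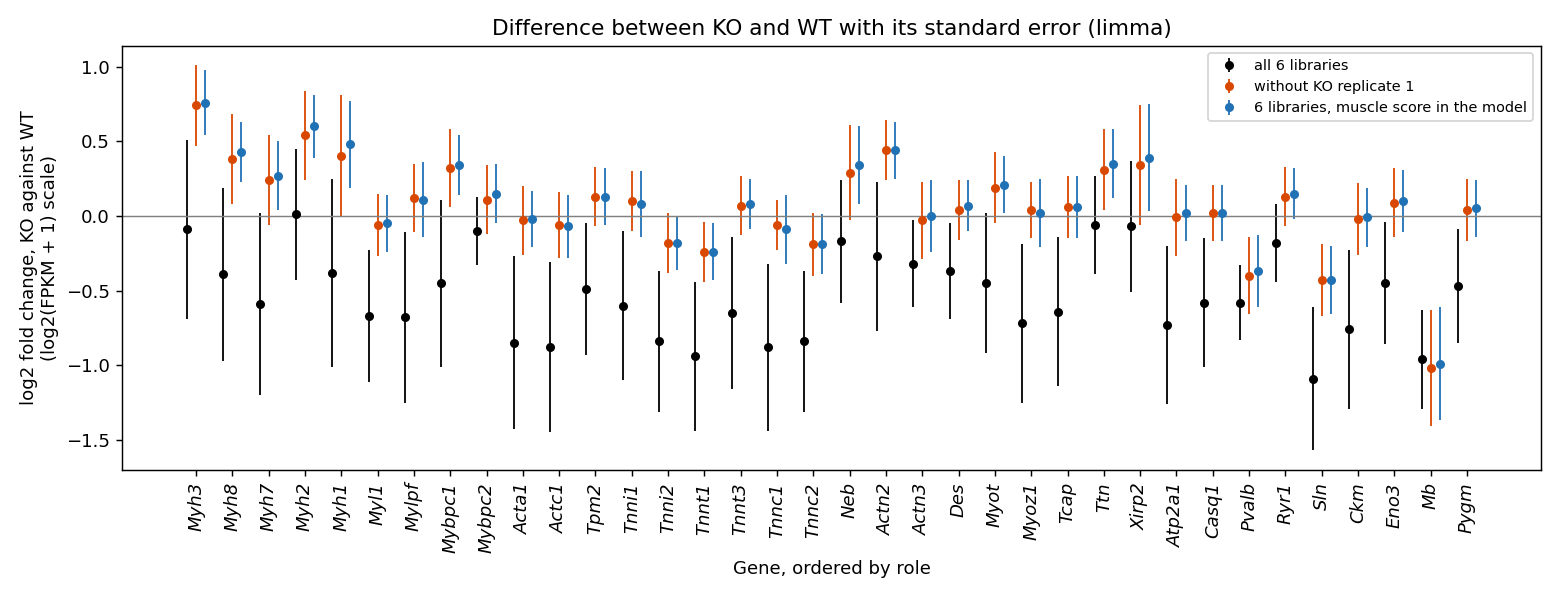
Log2 fold change of KO against WT with its standard error for the 36 tested genes, from all 6 libraries (black), without KO replicate 1 (orange) and with the muscle score in the model (blue). Black points lie below 0 for 35 genes, while orange and blue points lie on both sides of 0, with Mb near −1 in all 3 fits and Myh3 at 0.74 and 0.76 in the orange and blue ones. The orange and blue fits are not independent, since the score mainly sets KO replicate 1 apart.

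A fit with the score of the 41 other fibre genes as a covariate compared the groups at equal muscle content. That score was −0.87 in KO replicate 1 and 0.06 to 0.34 in the other libraries, so it mainly set that library apart. The fit was therefore close to the one without KO replicate 1 and is not separate support for it. The log2 fold change was 0.76 against 0.74 for Myh3, and −0.99 against −1.02 for Mb. None of the 36 genes passed (limma, 0 at an adjusted p of 0.05 and 4 at an unadjusted p under 0.05), where 1.49% of all genes tested passed and 16.7% had an unadjusted p under 0.05. The median log2 fold change was 0.08, with 12 genes below 0 and 24 above, against a median of 0.02 and 47.9% below 0 over all genes tested. Of all genes, 0.743% passed in each direction.

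The genes farthest from 0 in that fit were Mb and Myh3. For Mb the log2 fold change was −0.99 with an SE of 0.38 (limma, adjusted p 0.239). For Myh3 it was 0.76 with an SE of 0.22 (limma, adjusted p 0.135). Without WT replicate 1 both passed, Mb at −1.46 (limma, adjusted p 0.0203) and Myh3 at 0.94 (limma, adjusted p 0.0491). No other left-out library gave either a pass, with adjusted p up to 0.507 for Mb and 0.415 for Myh3. With all libraries, the other heavy chains tested were above 0 as well. Their log2 fold changes were 0.60 for Myh2, 0.48 for Myh1, 0.43 for Myh8 and 0.27 for Myh7, so a value above 0 was not particular to the embryonic form.

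Long transcripts of the set were low in WT replicate 3, a second library that stood apart. The 10 genes with transcripts over 5000 nt (the 6 myosin heavy chains, Neb, Ttn, Xirp2 and Ryr1) stood in WT replicate 3 at a median of 50.8% of the mean of WT replicates 1 and 2. The range ran from 21.7% for Xirp2 to 77.4% for Myh4. The 15 genes under 1500 nt stood at a median of 96.9% (78.8% to 167%) and the 12 in between at 90.3% (61.6% to 129%). Over all 2504 tested genes above 5000 nt, the median deviation from the gene's mean was −0.20 in WT replicate 3, on the log2(FPKM + 1) scale. It was −0.00 to 0.09 in the other libraries, so low long transcripts in WT replicate 3 were not confined to muscle genes. WT replicate 1, the library at 0.09, leaned the other way. Over all tested genes under 1500 nt, the median deviation was −0.15 in WT replicate 1 and 0.13 in WT replicate 3. WT replicate 1 is part of the reference for the percentages above, so they hold both shifts. For the 10 long members the median deviation in WT replicate 3 was −0.54, on log2 FPKM without a pseudocount, so the sizes are not like for like.

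The 4 longest genes were low in WT replicate 3, though above 5000 nt the shift did not follow length. As a percent of the mean of WT replicates 1 and 2, Ttn stood at 38.6%, Neb at 43.2%, Xirp2 at 21.7% and Ryr1 at 59.3%. The shorter Myh1 (5938 nt) stood at 39.6%. Titin, Ttn, the spring of the sarcomere and the longest transcript at 100404 nt, lay at 1.94, 1.89 and 0.74 FPKM (WT) against 0.41, 1.65 and 2.47 FPKM (KO). Nebulin, Neb, which runs along the thin filament, lay at 4.66, 4.28 and 1.93 FPKM (WT) against 1.07, 3.41 and 5.71 FPKM (KO). Xirp2, an actin-binding protein, lay at 3.20, 1.77 and 0.54 FPKM (WT) against 0.41, 1.51 and 3.35 FPKM (KO). The ryanodine receptor, Ryr1, lay at 1.18, 1.35 and 0.75 FPKM (WT) against 0.20, 1.08 and 1.47 FPKM (KO). In all 4, WT replicate 3 was the lowest WT library.

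Fold changes of the set differed by transcript length. With all libraries the median log2 fold change was −0.84 for the 15 short genes, −0.45 for the 12 of middle length and −0.17 for the 9 tested long genes. They were −0.06, 0.07 and 0.34 without KO replicate 1, and without both KO replicate 1 and WT replicate 3 they were −0.08, 0.04 and 0.03. The same libraries moved the single long genes: without both, the log2 fold change of Myh3 was 0.47 (limma, adjusted p 0.397) and that of Myh8 0.12 (limma, adjusted p 0.89). The 6 myosin heavy chains have transcripts of 5938 to 6149 nt and Tnnt1 and Tnnt3 of 1059 and 1079 nt, so the shares within these families compare transcripts of nearly equal length. The heavy chains still differed in WT replicate 3, from 39.6% (Myh1) to 57.2% (Myh8) of the mean of WT replicates 1 and 2. Myh4, near 0 FPKM, stood at 77.4%. The part of that library's shift in the myosin shares was not tested. Several long genes were also low in level (mean 1.01 FPKM for Ryr1 and 1.52 for Ttn, though 80.4 for Myh8). The log2(FPKM + 1) scale understates fold changes of such low genes. Without a pseudocount, the median log2 deviation in KO replicate 1 was −1.99 for short, −1.60 for middle and −1.87 for long genes. The parts of transcript length and of expression level in the differences between genes of unequal length were not tested further.

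**Figure D4:**
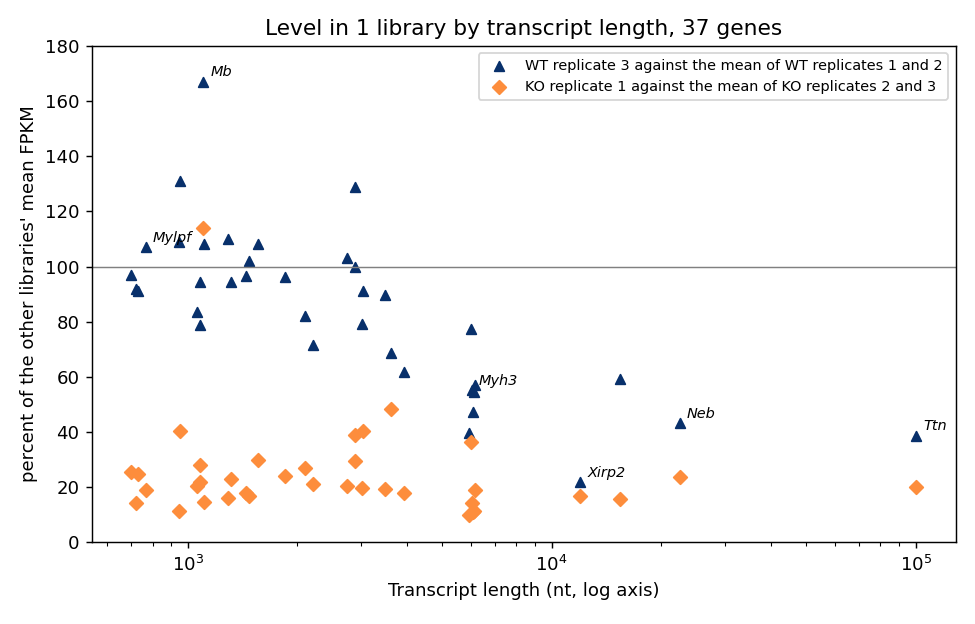
FPKM in WT replicate 3 as a percent of the mean of WT replicates 1 and 2 (blue triangles), and in KO replicate 1 as a percent of the mean of KO replicates 2 and 3 (orange diamonds), against transcript length in nt (log axis) for the 37 genes. Blue points are lower for long transcripts, with a median of 50.8% over 5000 nt against 96.9% under 1500 nt, while the orange points lie below 50% at all lengths, apart from Mb at 114%.

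Genes that act with the set were read from lists chosen by role. Of the 41 other fibre genes 39 were tested, 0 passed, and 38 had a log2 fold change below 0, with a median of −0.35 (−0.02 without KO replicate 1). Their smallest p-values belonged to Jph2, which tethers the sarcoplasmic reticulum to the T-tubule (limma, log2 fold change −0.66, adjusted p 0.0905), Tmod4, a cap of the thin filament (−0.61, adjusted p 0.248), and Apobec2 (−0.87, adjusted p 0.287). These were −0.49, −0.32 and −0.31 without KO replicate 1.

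Of the 14 myogenic regulators 7 were tested and 0 passed. Each KO library lay below each WT library for 3 of the 7, Myod1, Tmem8c and Myog, where the groups did not overlap for 24.9% of all genes tested. Myod1, a myogenic transcription factor, lay at 0.80, 1 and 1.09 FPKM (WT) against 0.12, 0.59 and 0.33 FPKM (KO) (limma, log2 fold change −0.56, adjusted p 0.124). Tmem8c encodes the fusion factor myomaker and had a log2 fold change of −0.75 (limma, adjusted p 0.175), and myogenin, Myog, one of −0.76 (limma, adjusted p 0.324). They were, without KO replicate 1, −0.43 for Myod1, −0.46 for Tmem8c and −0.24 for Myog. Myf5, which names the deleted lineage, had a mean below 0.5 FPKM and was not tested. It lay at 0.44, 0.43 and 0.33 FPKM (WT) against 0.04, 0.17 and 0.13 FPKM (KO), and its lowest value rests on about 1.12 reads.

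Of the 10 endplate genes 4 were tested and 0 passed. Lrp4, the agrin receptor, was above each WT library in each KO library, at 0.62 to 1.12 FPKM (WT) against 1.27 to 1.42 FPKM (KO) (limma, log2 fold change 0.35, adjusted p 0.251). The groups did not overlap, in either direction, for 24.9% of all genes tested. In KO replicate 1 Lrp4 stood at 90.7% of the mean of the other KO libraries. Whether its RNA came from muscle fibres was not tested. The receptor subunit genes Chrnb1 (limma, −0.44, adjusted p 0.346) and Chrna1 (−0.27, adjusted p 0.475) lay below 0. Leaving out KO replicate 1 gave 0.38 for Lrp4, −0.17 for Chrnb1 and −0.12 for Chrna1. Of the 13 cardiac genes 11 were in the table, 6 were tested and 0 passed. Tbx5, a transcription factor gene of heart and forelimb, had the smallest p (limma, −0.90, adjusted p 0.0902), followed by Gja5 (−0.53, adjusted p 0.203) and Tnnt2, cardiac troponin T (−0.72, adjusted p 0.415). Leaving out KO replicate 1 gave −0.90 for Tbx5, −0.54 for Gja5 and −0.10 for Tnnt2. Of the 8 smooth muscle genes 7 were tested and 0 passed, with Acta2, smooth muscle actin, at −0.60 (limma, adjusted p 0.132), Cnn1 at −0.35 (0.35) and Tagln at −0.28 (0.431), or −0.50, −0.20 and −0.21 without KO replicate 1. Of the 12 brown fat markers, given for the tissue, 3 passed, against 2.21% of all genes tested. They were Elovl3 (limma, −2.34, adjusted p 0.0151), Otop1 (−1.52, 0.0243) and Plin1 (−1.36, 0.0267), all lower in KO. These were −2.48, −1.82 and −1.46 without KO replicate 1, where Prdm16 also passed (limma, −1.05, adjusted p 0.0409) and 1.01% of all genes did.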

How the data were processed

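The authors deposited FPKM values, per the file headers, rounded to 2 decimals. The submitters' processing notes name HISAT2 2.0.4, Bowtie2 2.2.5, DESeq2 and the build mm10, without roles; the counting tool, strand handling and treatment of multiply mapped reads are not given in the sources used here. Groups and replicate numbers came from the sample titles. FPKM are not counts, so log2(FPKM + 1) was fitted with limma 3.58.1 in R 4.3.3 (intensity trend, no covariates) over the 13331 genes whose mean reached 0.5 FPKM, with Benjamini-Hochberg adjustment over all of them at 0.05. A second fit added a score, the mean log2 deviation of 41 other fibre genes, as a covariate. Isoform shares, in percent of summed FPKM, were compared by exact two-sided permutation over the 20 splits. Both fits were run on simulated data that held group differences but no difference in muscle content. How well the second fit removes muscle content was therefore not tested.

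Depth was estimated from low values of single-transcript genes of 500 to 1300 nt (length offset 50 nt): 78.4% to 82.9% of 474 to 504 values in a library came within 0.2 of whole reads. These estimates cover counting only. Transcript lengths came from GENCODE vM21, and gene positions and promoters from RefSeq (GRCm38.p6). The members, lists and pairs were chosen with earlier results of these data known. Genes named are all members, and up to 3 genes of smallest p in each other list. Fabp4, Ucp1, Prdm16, Myf5, Myl2, Myl3, Myl4 and the cardiac markers near 0 were named after their values were seen. Same-numbered WT and KO libraries had deviations that correlated at 0.068, 0.043 and 0.043, so the numbers were not taken as pairs. Alternatives were another pseudocount (0.1), no filter and a filter at 5 FPKM, 2 scalings, 2 forms of eBayes, a replicate block and leaving out each library. Leaving out KO replicate 1 and WT replicate 3 together was chosen after seeing the data.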

Additional observations from a re-analysis of the deposited data

How the results depend on the processing

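In the fit without the muscle score and with all libraries kept, 0 of the tested members passed under the alternative pseudocount, filters, scalings, eBayes forms and the replicate block. Leaving out 1 library gave 0 to 1 member called (Mb, without WT replicate 1), a median log2 fold change of −0.96 to 0.07, and 34 to 444 called genes in all. At equal muscle content it gave 0 to 2 members, a median of −0.03 to 0.12 and 36 to 284 genes in all. The count over all genes was 35 without the filter and 167 with the replicate block, against 295, and at equal muscle content 6 without the filter and 669 with the block, against 198. The block there called 2 members, Mb and Myh3, with a median of −0.05. Averaging the share differences within replicate numbers, the block for shares, gives the same values by construction (2.35 for embryonic myosin).

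Without KO replicate 1 and WT replicate 3 together the median was 0.00 and 16 genes were called in all (67 at equal muscle content, where the median was 0.13). Log2 fold changes were then 0.14 for Tnni1, 0.47 for Myh3, 0.12 for Myh8, 0.33 for Actn2, 0.17 for Mylpf and 0.00 for Ckm. Share differences (KO minus WT, percentage points) were −1.84 for perinatal myosin, 1.6 for slow troponin I, 0.47 for slow troponin C, 0.0167 for cardiac actin and 0.379 for slow myosin binding protein C.

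Leaving out 1 library, log2 fold changes ran from −1.06 to 0.07 for Tnnt3, −0.96 to 0.10 for Tnni1, −0.59 to 0.74 for Myh3, −0.94 to 0.38 for Myh8, −1.16 to 0.24 for Myh7, −0.71 to 0.44 for Actn2, −1.27 to −0.02 for Ckm and −1.08 to 0.12 for Mylpf. Share differences ran from −2.6 to 1.62 for perinatal myosin, −1.56 to 0.517 for adult fast myosin, −0.327 to 1.27 for slow troponin I, −1.71 to 0.754 for slow troponin C, −0.934 to −0.138 for cardiac actin, −3.18 to 0.564 for slow myosin binding protein C and −3.86 to 1.35 for alpha-actinin 3. The embryonic share (1.13 to 3.23), the slow myosin share (−2.54 to −1.14) and the slow troponin T share (−3.39 to −2.58) kept their direction. Adding 1 FPKM to each gene before the share gave −2.05 for perinatal myosin, 1.19 for adult fast myosin and 0.202 for alpha-actinin 3, by raising the low genes of a family. What lies behind the remaining shifts was not tested. Depth limits Myh4, Pvalb, Tcap and, in KO replicate 1, Tnni1.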
